A study of Homo sapiens with 2 samples.

Results

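The 34 genes described here are established targets of estrogen receptor alpha in breast cancer cells. They were chosen by name, from GREB1 and PDZK1 to TSKU and SUSD3, and matched by gene symbol to the count table, where all 34 were found among 57820 genes. The rule was a list of names and used no threshold on a measured value. The names were chosen with earlier results of these data known. The 34 genes were measured as gene-level read counts of total RNA from T47D, an established human line of estrogen receptor-positive luminal breast cancer. The labels gave 1 group of 2 replicate libraries. The cells had the Y537S form of ESR1, changed within the hormone-binding part of the receptor, were kept in hormone-deprived medium and received 25 nM of a control siRNA. How the exchange was introduced and whether the line is a single clone are not given in the sources used here. With 1 group there was no comparison between conditions, and the levels below describe this state of the cells.

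Estrogen receptor alpha is a transcription factor that binds estradiol, pairs with a second receptor molecule and recruits coactivators to estrogen response elements in enhancers and promoters. Its targets in breast epithelium include growth factors, transcription factors, ion and amino acid transporters and chaperones of the receptor itself. The Y537S receptor, found in metastatic disease after endocrine therapy, holds the active conformation without hormone.

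The libraries held 41370662 reads on genes in replicate 1 and 37198274 in replicate 2. Markers of luminal epithelium were present in 9 of 9 cases, with summed levels of 2664 and 2485 TPM (reads divided by exon length and scaled so that each library sums to 1000000). Of 5 basal markers none was detected, their sum being 0.359 and 0.234 TPM, and of 7 mesenchymal and fibroblast markers 1 was detected, with sums of 1.24 and 1.35 TPM. None of 3 endothelial markers was detected. ESR1 had 25.7 TPM in replicate 1 and 21.2 TPM in replicate 2. Nothing in the labels tells whether separate cultures were used, and p-values between the libraries may measure technical spread.

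The target genes were mostly present at well above the typical level of a protein-coding gene. At 1 CPM (reads scaled to a library of 1000000, without length) or more in both libraries, 33 of the 34 (97.1%) were detected, against 60.9% of all 19263 protein-coding genes. Their median level was 23.7 ± 1.38 TPM (SD of the library medians, n = 2), against 9.27 ± 0.905 TPM for the detected protein-coding genes and 2.31 ± 0.165 TPM for all of them. Scaled over nuclear protein-coding genes alone, the median of the targets was 84.4 TPM, a change of scale common to every gene of a library. Among the targets 24 lay above the median of the detected protein-coding genes and 10 lay below it. The range was wide, and FKBP4 stood 1411-fold above ELOVL2. With TPM over all genes, 23 targets had 10 TPM or more, 6 had between 1 and 10 TPM and 5 had less than 1 TPM. Over nuclear protein-coding genes alone, 3 of these last 5, EGR3, CCN5 and RET, had means of 2.48, 1.42 and 1.32 TPM. SGK1 and ELOVL2 had 0.582 and 0.525 TPM on that scale. The counts at 1 and 10 TPM thus depend on the scale. These counts describe genes chosen as known targets and are no test of receptor activity.

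**Figure D1:**
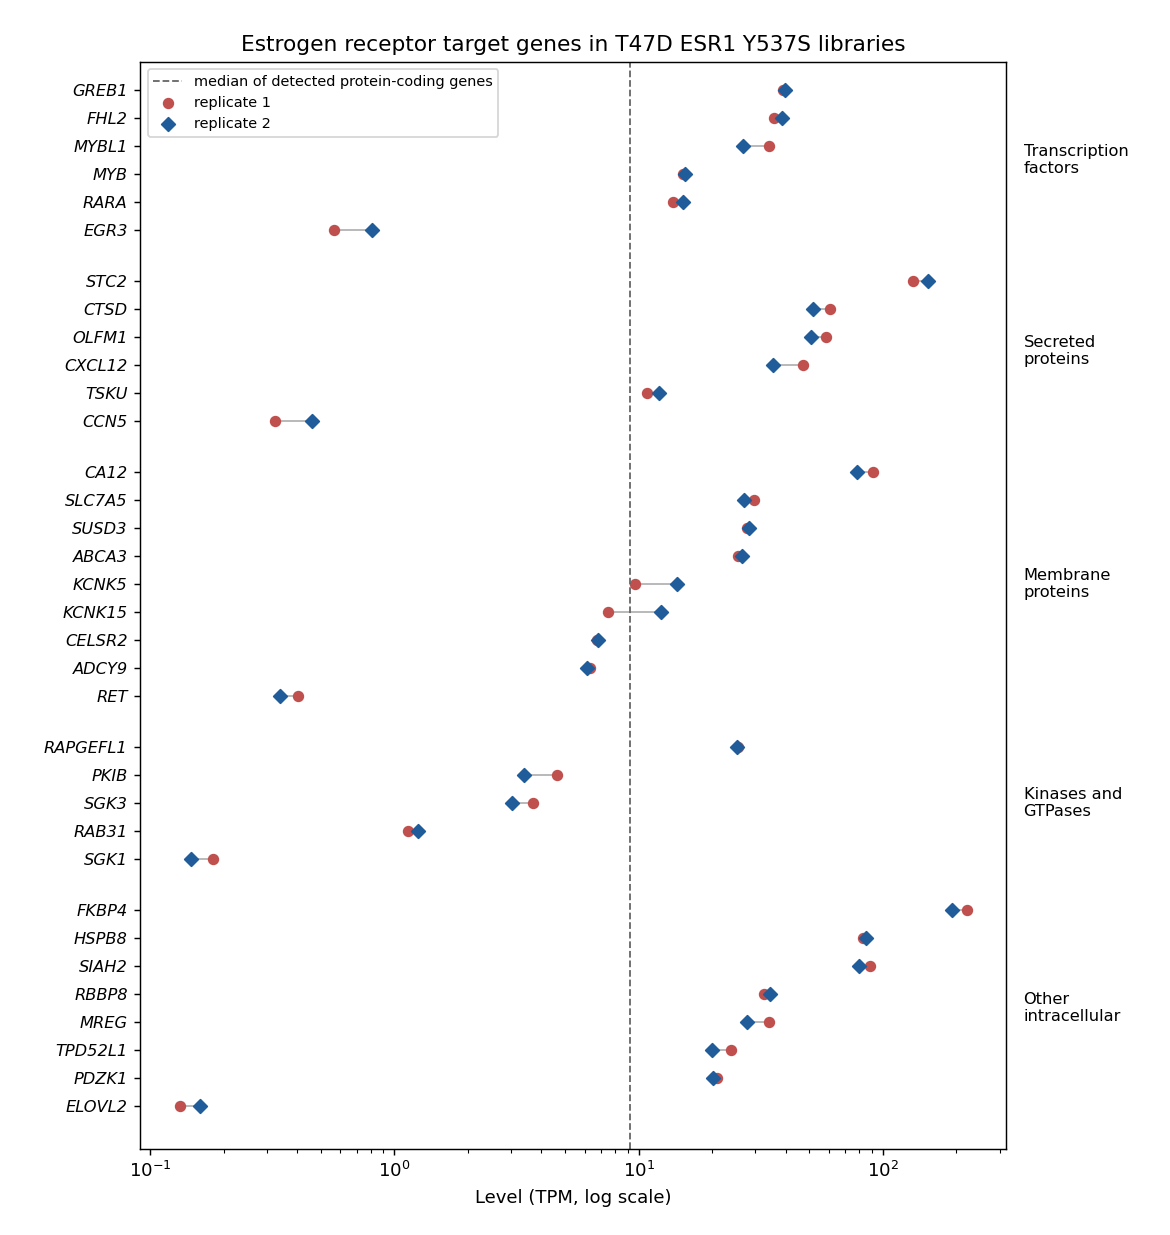
Level of each of the 34 target genes in TPM on a log axis, in replicate 1 (circles) and replicate 2 (diamonds), grouped by the role of the protein; the dashed line is the median of detected protein-coding genes. Most targets lie to the right of the line, and KCNK5 and KCNK15 have wide gaps between the libraries. EGR3, CCN5, RET, SGK1 and ELOVL2 lie under 1 TPM on this scale, which is taken over all genes.

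The promoter windows of the targets were read for estrogen response element letters. RefSeq windows on GRCh38.p14, from 250 bases before to 50 bases after each annotated start, were held for 26 of the 34 targets, in 43 windows. The full palindrome GGTCANNNTGACC, in which N is any base, was found in none of these 43 windows and in 20 of all 35116 windows (0.057%). A single arm, GGTCA or, on the other strand, TGACC, was found in 12 of the 43 target windows (27.9%) and in 37.4% of all windows. No match says only that these letters are not in this window, and receptor sites often lie far from the start. Windows with 3 or more arms made up 1.91% of all windows. Among the targets CTSD and RARA had 1 such window each, with 3 arms, and they are printed here to show how the arms are spaced, with each arm in capitals and all other bases in lower case, 5′ to 3′ along the gene's strand.
CTSD, chr11:1763878-1764177, minus strand: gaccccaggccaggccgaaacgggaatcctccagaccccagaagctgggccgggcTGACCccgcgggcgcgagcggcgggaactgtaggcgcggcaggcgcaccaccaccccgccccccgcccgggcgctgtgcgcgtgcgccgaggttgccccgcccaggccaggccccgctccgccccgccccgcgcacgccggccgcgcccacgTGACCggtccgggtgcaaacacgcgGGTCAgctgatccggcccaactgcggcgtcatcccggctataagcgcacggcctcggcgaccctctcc
RARA, chr17:40308930-40309229, plus strand: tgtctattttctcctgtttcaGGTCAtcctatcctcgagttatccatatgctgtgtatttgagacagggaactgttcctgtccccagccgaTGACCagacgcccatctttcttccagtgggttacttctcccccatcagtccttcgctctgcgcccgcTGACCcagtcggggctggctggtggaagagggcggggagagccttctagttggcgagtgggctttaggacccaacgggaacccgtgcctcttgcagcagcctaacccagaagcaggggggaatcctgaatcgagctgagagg
In CTSD the arms begin 195, 43 and 18 bases before the start. In RARA, which has other annotated starts without an arm, they begin 229, 159 and 92 bases before the start.

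Of the 6 transcription factors and coregulators, 5 stood above the detected median and EGR3 far below it. GREB1 (ENSG00000196208.9, hg19 chromosome 2, 11674242 to 11782914), a chromatin-bound partner of the receptor named for its growth response to estrogen, had 39.0 TPM in replicate 1 and 39.6 in replicate 2. FHL2, a LIM-domain coregulator, had 35.8 and 38.7 TPM. The MYB-family factor MYBL1 had 34.3 and 26.8 TPM, against 15.2 and 15.5 TPM for MYB itself. RARA, the retinoic acid receptor alpha, had 13.9 and 15.2 TPM. EGR3, an early-response zinc finger factor, had 0.567 and 0.808 TPM, from 73 and 104 reads. GREB1, FHL2 and MYBL1 thus formed an upper group in both libraries, MYB and RARA a middle one, and EGR3 stood apart.

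Relatives of these factors were at quite different levels. GREB1 was 19.1-fold above its paralog GREB1L in replicate 1 (95% counting interval 17.6 to 20.8) and 30.4-fold higher in replicate 2 (27.4 to 33.8). MYB lay below MYBL1, at 0.444 times its level in replicate 1 and 0.578 times in replicate 2, while the proliferation-linked MYBL2 had 81.3 and 65.2 TPM. RARA lay below RARG, the gamma receptor, at 0.598 times its level (0.561 to 0.636) in replicate 1 and 0.759 times (0.713 to 0.807) in replicate 2. An antisense row covers 14.1% of the exon bases of RARA, and counting did not use strand, so the RARA level may be too low. RARB, the beta receptor, had 0.633 and 0.724 TPM. RXRA, the dimer partner of these receptors, had 10.9 and 9.32 TPM, and RXRG had no read in either library. RXRB also had none, but 28 of the 49 protein-coding genes within 1 Mb of it had none either, so its value was not read as a low level. EGR3, though low, was the highest of its family, 3.93-fold above EGR1 in replicate 1 (2.12 to 7.96) and 3.95-fold higher in replicate 2 (2.35 to 7.05). EGR1 had only 12 and 17 reads and was not detected. EGR2 and EGR4 had 6 and 0 and 0 and 2 reads. The EGR corepressors NAB2 and NAB1 stood at 32.7 and 31.7 TPM and at 7.34 and 5.52 TPM. FHL1 had no read. Set against a floor of 3 reads per library, FHL2 was 1565-fold higher in replicate 1 and 1693-fold higher in replicate 2. The lower 95% counting bounds of these ratios, taken without the floor, were 1272 and 1377.

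Of the 6 secreted products, STC2, CTSD, OLFM1 and CXCL12 stood above the median of the targets, and TSKU and CCN5 below it. STC2 (ENSG00000113739.6, hg19 chromosome 5, 172741716 to 172756506), the glycoprotein hormone stanniocalcin 2, had 133 and 153 TPM. Its paralog STC1 had 4.58 and 5.61 TPM, and the ratio of STC2 to STC1 was 29.03 (26.6 to 31.8) in replicate 1 and 27.3 (25.2 to 29.6) in replicate 2. CTSD, a lysosomal aspartic protease that breast cancer cells also secrete, had 60.7 and 51.8 TPM. Other rows of the table cover 41.3% of its exon bases, so reads there were not assigned and its level may be too low. CTSB, a cysteine protease of the same compartment, had 57.4 and 54.4 TPM, and the log2 ratio of CTSD to CTSB was 0.01 ± 0.11 (SD, n = 2), within the spread between libraries. In CPM, without exon length, it was -1.30 and exceeded that spread. OLFM1, an olfactomedin-domain glycoprotein, had 58.5 and 50.7 TPM, and stood 117.5-fold above OLFM2 in replicate 1 and 116-fold above it in replicate 2. OLFM3 and OLFM4 had no read.

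CXCL12 and its receptors were unequal. CXCL12, a chemokine that guides leukocytes and tumor cells, had 47.1 TPM in replicate 1 and 35.6 in replicate 2. Its signaling receptor gene CXCR4 had 3.02 and 2.80 TPM, so that the ligand stood 15.6-fold above the receptor in replicate 1 (13.4 to 18.2) and 12.7-fold in replicate 2 (10.9 to 14.9). The scavenging receptor gene ACKR3 had 0 and 2 reads. TSKU, a small leucine-rich proteoglycan, had 10.8 and 12.2 TPM. CCN5, a matricellular protein once called WISP2, had 0.326 and 0.462 TPM from 43 and 61 reads. Within its family CCN1 was higher, with 11.9 and 11.1 TPM, CCN2 had 9 and 18 reads, and CCN3, CCN4 and CCN6 had at most 7 reads in either library.

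Among the 9 membrane proteins the enzyme CA12 led and the receptor tyrosine kinase RET was last. CA12, a transmembrane carbonic anhydrase, had 91.2 and 78.5 TPM. The related CA9 had 0 and 2 reads and CA2 had none. Against the floor of 3 reads CA12 was at least 1345-fold higher than CA9 in replicate 1. In replicate 2 the ratio of CA12 to CA9 was 1737, with a counting interval of 481 to 14346, and 38.5% of the exonic sequence of CA9 lies in other rows too. SLC7A5, the light chain of the large neutral amino acid transporter, had 29.6 and 26.9 TPM. SLC3A2, the heavy chain it pairs with, had 73.7 and 70.1 TPM, and SLC7A5 stood at 0.402 times its level (0.387 to 0.417) in replicate 1 and 0.383 times (0.369 to 0.399) in replicate 2. The other light chains SLC7A8 and SLC7A11 had 2.04 and 2.02 TPM and 3.22 and 2.55 TPM. SUSD3, a sushi-domain membrane protein, had 27.8 and 28.2 TPM, and the lipid transporter ABCA3 had 25.5 and 26.6 TPM. ABCA2 stood at 15.3 and 15.8 TPM and ABCA1 at 0.432 and 0.465 TPM.

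Potassium channels, an adhesion receptor and an adenylyl cyclase lay near or below the detected median of 9.25 TPM. KCNK5 and KCNK15, background potassium channels of the tandem pore family, had 9.65 and 14.3 TPM and 7.49 and 12.4 TPM, and their log2 ratio of 0.29 ± 0.11 was within the spread between libraries, though in CPM it was 1.8 and exceeded it. KCNK6 of the same family had 23.4 and 21.4 TPM and KCNK1 3.58 and 3.14 TPM. CELSR2, an adhesion receptor with cadherin repeats, had 6.77 and 6.82 TPM, 0.307 and 0.304 times the level of CELSR1. ADCY9, a membrane adenylyl cyclase, had 6.31 and 6.13 TPM, 0.265 and 0.276 times that of ADCY6.

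RET was detected at a low level, while GFRA1, one of its co-receptors, was well above the detected median. RET (ENSG00000165731.13, hg19 chromosome 10, 43572475 to 43625799), the receptor of the GDNF family of ligands, had 0.402 TPM in replicate 1 and 0.340 in replicate 2, from 71 and 60 reads. GFRA1, a co-receptor that presents the ligand to RET, had 22.1 and 22.9 TPM. RET thus stood 60.9-fold below GFRA1 on average (log2 ratio -5.93 ± 0.21, SD, n = 2). The co-receptor genes GFRA2, GFRA3 and GFRA4 had 0 and 0, 6 and 16, and 0 and 1 reads. Of the ligand genes, GDNF had no read in either library, and NRTN had 0.681 and 0.816 TPM. The artemin gene ARTN was the highest ligand, with 6.90 and 6.48 TPM, and PSPN had 1.24 and 1.36 TPM.

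**Figure D2:**
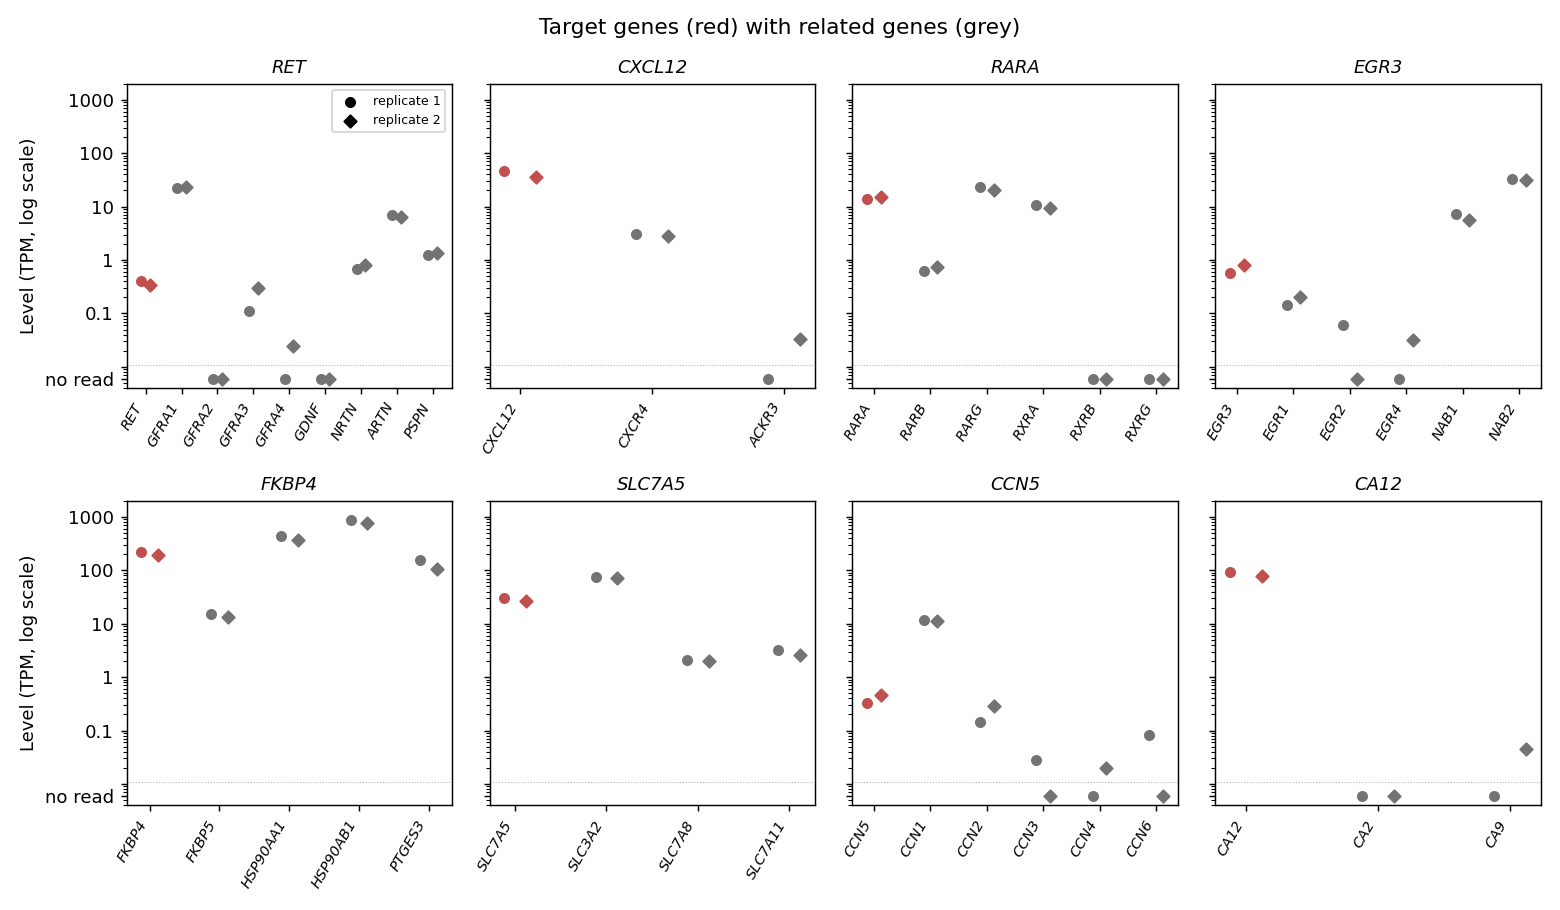
Level in TPM on a log axis of 8 target genes (red) and of their relatives, receptors or binding partners (grey), in replicate 1 (circles) and replicate 2 (diamonds); points under the dotted line had no read. RET lies below GFRA1 and ARTN, CXCL12 above CXCR4, and FKBP4 between FKBP5 and the HSP90 genes.

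The 5 genes of kinase and small GTPase signaling were the lowest group, with a median of 3.35 TPM. RAPGEFL1, a guanine nucleotide exchange factor-like protein, was the only one of them above the detected median, with 25.5 TPM in replicate 1 and 25.3 in replicate 2. PKIB, an inhibitor of protein kinase A, had 4.62 and 3.39 TPM, against 8.90 and 8.88 TPM for PKIG of the same family. SGK3, a kinase related to AKT, had 3.68 and 3.03 TPM, and another row of the table covers 41.9% of its exon bases, so its level may be too low. SGK1 (ENSG00000118515.7, hg19 chromosome 6, 134490384 to 134639250), the serum- and glucocorticoid-regulated kinase, had 0.181 and 0.147 TPM from 48 and 39 reads. It stood 20.4-fold below SGK3 (log2 ratio -4.35 ± 0.02), and SGK2 had 8 and 11 reads. Of their partners, the activating kinase gene PDPK1 had 7.27 and 6.06 TPM and the ligase NEDD4L, an SGK substrate, 4.84 and 4.78 TPM. RAB31, a GTPase of vesicle traffic, had 1.14 and 1.25 TPM and lay 7.38-fold below its close relative RAB22A (log2 ratio -2.88 ± 0.33).

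The remaining 8 intracellular proteins ran from the highest target to the lowest. FKBP4 (ENSG00000004478.5, hg19 chromosome 12, 2904119 to 2914576), an HSP90 co-chaperone of steroid receptors, had 220.5 TPM in replicate 1 and 192 in replicate 2, at percentile 99.1 of protein-coding genes. Antisense rows cover 12.8% of its exon bases, and counting did not use strand. Its competitor FKBP5 had 15.3 and 13.5 TPM, so that FKBP4 stood 14.4-fold above it in replicate 1 (13.9 to 14.9) and 14.3-fold in replicate 2 (13.8 to 14.8). The chaperones HSP90AB1 and HSP90AA1 stood at 881 and 759 TPM and at 434 and 364 TPM, and the co-chaperone gene PTGES3 at 154 and 107 TPM. The small heat-shock gene HSPB8 had 82.5 and 85.6 TPM, above its partner BAG3 with 8.27 and 7.87 TPM. SIAH2, a ubiquitin ligase, had 88.1 and 79.4 TPM. It stood 64.4-fold above SIAH1 in replicate 1 (56.6 to 73.5) and 71.2-fold in replicate 2 (61.8 to 82.4), but 31.2% of the exonic sequence of SIAH1 lies in other rows too.

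RBBP8, which starts DNA end resection, had 32.7 TPM in replicate 1 and 34.6 in replicate 2. Of its partners in DNA repair, MRE11 had 43.7 and 35.9 TPM, NBN 25.1 and 19.8 TPM, RAD50 19.5 and 17.6 TPM and BRCA1 18.9 and 15.3 TPM. RBBP8 thus lay below MRE11 and above the other partners in both libraries, and these gaps were not tested. MREG, a melanosome traffic protein, had 34.3 and 27.8 TPM. TPD52L1, a coiled-coil protein of the D52 family, had 23.9 and 20.0 TPM, below TPD52L2 in TPM (log2 ratio -0.68 ± 0.10) but in CPM, where exon length is not divided out, the log2 ratio was 0.02 and within the spread. The scaffold PDZK1 had 20.9 and 20.2 TPM, and SCARB1, a receptor it anchors, 12.6 and 10.5 TPM. The pseudogene copy PDZK1P1 had no read, and reads shared by near-identical copies would not have been counted. ELOVL2, an elongase of polyunsaturated fatty acids, had 14 and 17 reads, or 0.132 and 0.160 TPM, and was the target that was not detected. It lay 338-fold below ELOVL5 (log2 ratio -8.40 ± 0.41).

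Of 22 ratios examined, 20 were larger than the spread between libraries, with KCNK5 to KCNK15 and CTSD to CTSB as the exceptions. They set a target against a relative or partner, except 1 that set STC2 against CXCL12, both secreted targets, with ratios of 2.83 in replicate 1 and 4.31 in replicate 2. A ratio was counted if both libraries gave an exact conditional binomial interval on the same side of 1 and the mean log2 ratio was larger than the 95th percentile of replicate differences at the level of the lower gene. Because it comes from 1 gene seen in both libraries, this threshold holds no error between genes. No share over arbitrary pairs of genes was computed to set beside the 20 of 22. The related genes were also chosen with earlier results of these data known. The count is therefore no result about targets and their relatives. Of 77 related genes matched by name, 52 were detected, against 60.9% of all protein-coding genes, and 9 had no read in either library.

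In the order of levels, most adjacent steps were within the spread between libraries. Sorting by level makes adjacent steps small, so their count is no result about the targets. As for the ratios, the threshold holds no error between genes. Of the 33 adjacent steps from FKBP4 down to ELOVL2, 8 exceeded the spread between libraries and 25 did not. FKBP4 lay above STC2 by 0.53 on the log2 scale and STC2 above CA12 by 0.76. CA12, HSPB8 and SIAH2 formed a group with means from 84.8 to 83.8 TPM. A step of 0.58 separated SIAH2 from CTSD, and one of 0.41 OLFM1 from CXCL12. From CXCL12 to PDZK1 every adjacent step was within the spread, over means from 41.3 to 20.5 TPM. Further steps separated PDZK1 from MYB (0.42), ADCY9 from PKIB (0.65), SGK3 from RAB31 (1.48) and RET from SGK1 (1.18).

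The replicate libraries differed at several targets by more than counting error, with each read taken as independent. Each gene's split of reads was set against the split of TMM-scaled library sizes with an exact binomial test (two-sided, Benjamini-Hochberg over 14668 genes). By this test 21 of 33 tested targets differed between the libraries, against a background of 39.5% of all genes tested. Of these 5 were higher in replicate 1, where the background was 20.6%, and 16 were higher in replicate 2, where it was 18.9%. Scaling by total counts gave 9 and 15. High genes are called more easily: at a mean of 30 CPM or more, 17 of 24 targets were called against 53.7% of genes, with 4 higher in replicate 1 against 31.7% and 13 higher in replicate 2 against 22%. This compares 2 libraries of 1 group and says nothing about conditions. Counting had no option for read pairs. If reads came in pairs, mates of 1 fragment were counted as separate reads. The p-values would then be too small and the numbers called too high.

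The potassium channels differed most. KCNK15 (ENSG00000124249.5, hg19 chromosome 20, 43374421 to 43379675) had 262 reads in replicate 1 and 433 in replicate 2, a log2 difference of -0.90 (replicate 1 over replicate 2, exact binomial adjusted p = 2.31e-14). KCNK5 (ENSG00000164626.8, hg19 chromosome 6, 39156749 to 39197226) had 960 and 1426 reads, a log2 difference of -0.74 (exact binomial adjusted p = 1.03e-33). STC2 differed by -0.38, TSKU by -0.34, RARA by -0.31 and FHL2 by -0.29. These 6 exceeded the 95th percentile of replicate differences at their level. By definition, 95% of genes with a read at a given level lie within that limit. All 6 were higher in replicate 2, and the share of all genes beyond the limit in that direction was not computed. Among the other targets, EGR3 also differed by the test, with a log2 difference of -0.68 (exact binomial adjusted p = 0.00791), but at its low level this was within the 95th percentile of 0.97. CCN5 had -0.67 and did not pass (exact binomial adjusted p = 0.0554), and ELOVL2, with -0.45, was too low to be tested. The difference was -0.19 for GREB1, 0.23 for CXCL12 and 0.02 for FKBP4. Over all 34 targets the median absolute log2 difference was 0.20, against 0.13 over all detected genes. ESR1 itself was higher in replicate 1 in TPM, and its part in these differences was not tested.

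**Figure D3:**
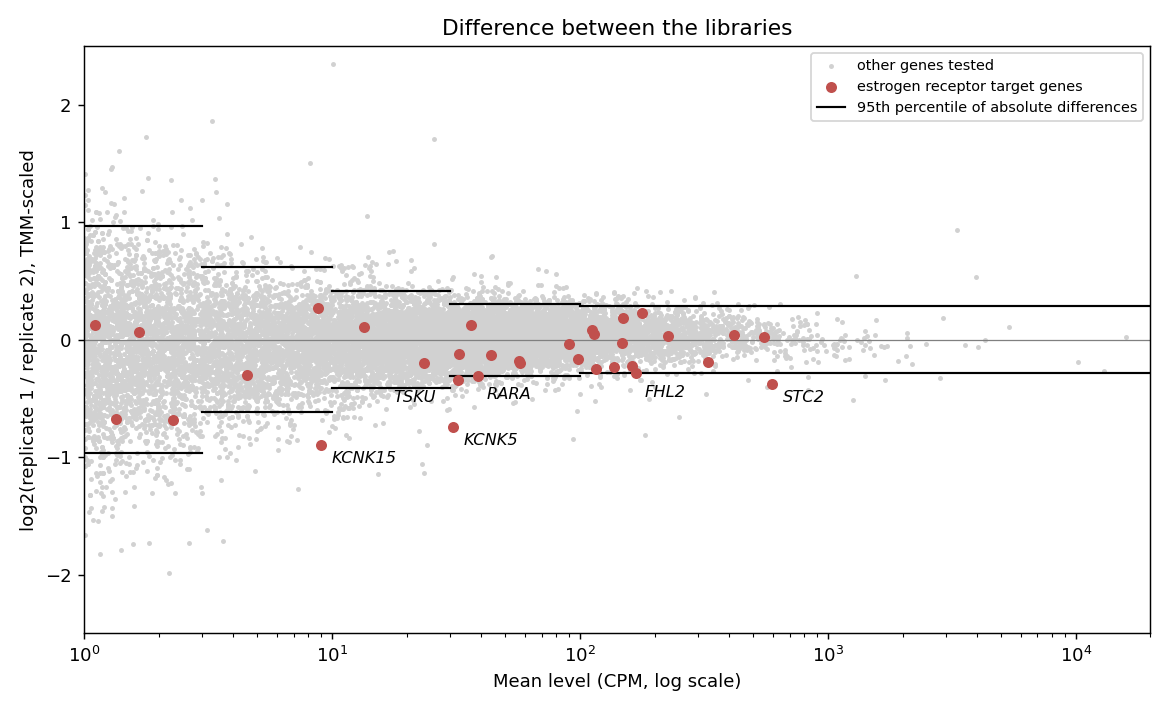
Log2 difference between replicate 1 and replicate 2, scaled by TMM, against mean level in CPM on a log axis for the 14668 genes tested, with target genes in red and black lines at the 95th percentile of absolute differences in each class of level; 10 genes lie outside the axes. The 6 named targets lie below the lower line, KCNK15 and KCNK5 farthest.

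The targets lay on 15 chromosomes, with 6 on chromosome 6, and 6 pairs of targets lay within 2 Mb of each other. Genes of a pair were often at quite different levels. CCN5 and KCNK15 are adjacent on chromosome 20 with 17.3 kb between them, and had means of 0.394 and 9.93 TPM. MYBL1 and SGK3 lie 98.2 kb apart on chromosome 8, with 30.5 and 3.35 TPM, and RAPGEFL1 and RARA 114 kb apart on chromosome 17, with 25.4 and 14.5 TPM. The widest contrasts were those of SGK1 and MYB, 863 kb apart on chromosome 6 with 0.164 and 15.3 TPM, and of RET and CXCL12, 1167 kb apart on chromosome 10 with 0.371 and 41.3 TPM. ABCA3 and ADCY9, 1613 kb apart on chromosome 16, had 26.03 and 6.22 TPM.

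Targets were often the highest gene of their immediate surroundings. Of the 34, 23 (67.6%) had a higher mean TPM than the nearest non-overlapping protein-coding gene on either side, against 30.04% of all protein-coding genes. Of the 33 detected targets these 23 were 69.7%, against 45.7% of all detected protein-coding genes, and 3 targets (CELSR2, CCN5 and RET) lay below both neighbours. HSPB8 stood at 84.0 TPM between SRRM4 and CCDC60, neither of which had a read. SIAH2, with 83.8 TPM, lay between ERICH6 with 0.245 TPM and MINDY4B with 0.933 TPM, and CTSD, with 56.2 TPM, between IFITM10 with 1.72 TPM and SYT8 with 2.06 TPM. GREB1, with 39.3 TPM, lay between E2F6 with 6.97 TPM and NTSR2 with 0.204 TPM. RARA was an intermediate case, with 14.5 TPM between the replication factor CDC6 with 34.6 TPM and GJD3 with 0.253 TPM. RET, with 0.371 TPM, lay between BMS1 with 33.6 TPM and CSGALNACT2 with 7.11 TPM. A list of higher level stands above its neighbours more often, and this share was not adjusted for level.

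**Figure D4:**
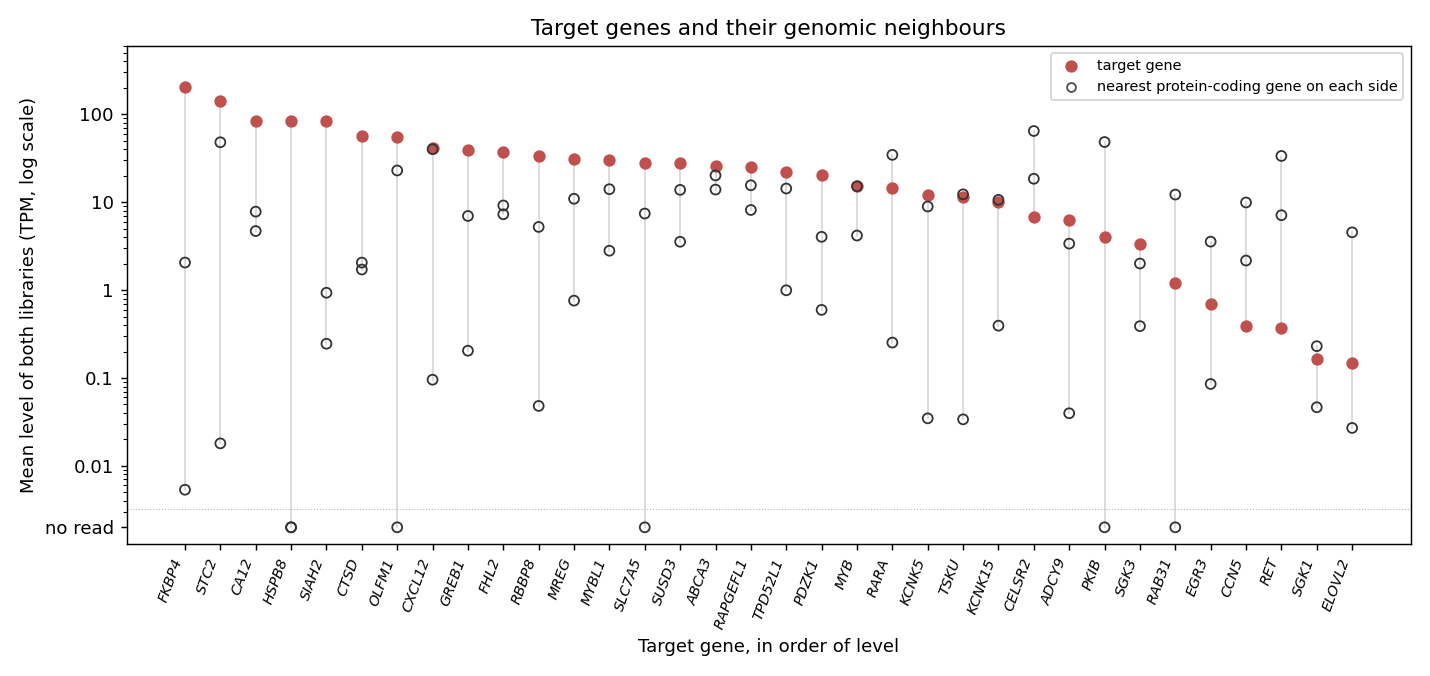
Mean level of both libraries in TPM on a log axis for each target gene (red) and for the nearest protein-coding gene on each side (open circles), with targets in order of level and genes without a read under the dotted line. Red points lie above both open circles for 23 of 34 targets, and below both for CELSR2, CCN5 and RET.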

How the data were processed

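The deposited values are whole-number counts of reads per gene. Per the file headers they were made by featureCounts 2.0.2 from exons of GENCODE release 19, without options for strand, read pairs, multimapping or overlap. HISAT2 and hg19 (GRCh37) come from the submitters' processing notes. By the counter's default, reads fitting several places or genes are not counted. The deposited table also gives the summed exon length. Columns were matched to the samples by line, receptor residue and replicate number; 8 further columns could be tied to no described sample and stayed unused.

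From the counts, CPM and TPM were computed over all 57820 genes. Symbols came from the supplied identifier table (51996 identifiers, 89.9%) and gene types from GENCODE release 29. Of 78 related genes 77 were matched. The replicate comparison used TMM sizes from edgeR 4.0.16, with size factors from DESeq2 1.42.0 as an alternative, and scipy 1.17.1. The test and the interval were tried on simulated counts with counting error alone, which says nothing about further spread between these libraries. Intervals and floors (3 reads per library) cover counting error only. The intervals take each read as independent, and would be too narrow if mates of read pairs were counted separately. Members, lists and related genes were chosen with earlier results of these data known. All 34 members are given; other genes named are their listed relatives, nearest neighbours and markers. The immune marker list is not reported here.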

Additional observations from a re-analysis of the deposited data

How the results depend on the processing

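The median level of the targets depends on the scale: 23.7 TPM over all genes became 84.4 TPM over nuclear protein-coding genes alone, and on the CPM scale, with no length, it was 56.9 CPM. The numbers of targets at 10 TPM or more and under 1 TPM depend on the scale too. Within a library the order of genes is the same on both TPM scales. Of the ratios between targets and related genes, CTSD to CTSB turned to a log2 ratio of -1.30 in CPM, and TPD52L1 to TPD52L2 turned to 0.023; exon length is the only difference between these scales. In CPM the ratio of CTSD to CTSB passed, as did KCNK5 to KCNK15 with 1.8, and TPD52L1 to TPD52L2 no longer passed. The number of targets detected was 33, or 29 at 2 CPM. Above the detected median lay 24, or 22 to 24 under the alternatives. With no detection filter, 28 lay above the median of all protein-coding genes, which is a lower limit. Between replicates 21 targets were called, with 20 to 24 under the alternatives, and 20 or 21 ratios were called. These numbers moved by less than 1.5 times. Without replicate 1 the median of the targets was 22.7 TPM and without replicate 2 it was 24.7 TPM. No paired analysis was possible because the labels give 1 group. Depth limits RET, CCN5, SGK1, EGR3 and ELOVL2, each with at most 104 reads in a library.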
